A study of Nematostella vectensis with 4 samples.

Results

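Cell barcodes rich in transcripts of small heat-shock proteins were examined in single-cell libraries from the pharynx and the mesentery of the starlet sea anemone Nematostella vectensis. A barcode was taken when it held at least 300 UMIs (unique molecular identifiers, each counted as 1 captured transcript) and when NVE10283 (HSP11_CAEEL), NVE10284 (SIP1_CAEEL) and NVE3919 (HSP11_CAEEL) together held at least 5 UMIs and at least 1.5% of its UMIs. The pharynx held 357 such barcodes among 2804 with at least 300 UMIs, or 12.7% (95% Clopper-Pearson interval 11.5 to 14.0). The mesentery held 87 among 1357, or 6.41% (5.17 to 7.85). Together they were 444 of 4161 kept barcodes of these tissues, in a series with 7112 kept barcodes. They are called heat-shock-rich barcodes here, and the other 2447 pharynx and 1270 mesentery barcodes are called the remaining barcodes.

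Sub-adult polyps aged 5 months were cut into tentacles, mesenteries, pharynx and body wall, and each tissue gave 1 library of 7000 barcodes on the 10x Genomics droplet platform. No allele, strain or added agent is named for any of them. All tissue pieces spent 1 h on a shaker in the trypsin-like enzyme TrypLE and a further 1.5 h with pipetting, so the libraries share this treatment and none is free of it. The sources used here do not give the number of animals pooled. With 1 library per tissue no value has a replicate error, no test was run, and every interval (95%) covers counting error only.

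Small heat-shock proteins are chaperones that hold unfolding proteins in a soluble state, until chaperones of the HSP70 and HSP90 families, helped by J-domain proteins and BAG-domain cofactors, refold them or pass them on for breakdown. In animals many of these genes are switched on by heat-shock factor when proteins unfold, and in other species enzymatic dissociation of tissue is known to switch on heat-shock and immediate early genes. Names such as SIP1_CAEEL are entry names of proteins of other species, given to the anemone genes in the deposited gene table. They point to a protein family, and the roles given below are those known for that family.

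The heat-shock-rich barcodes were shallow. Their median was 440 UMIs in the pharynx against 585 in the remaining barcodes, and 518 against 544 in the mesentery. In the pharynx 10 of them exceeded 5000 UMIs, the highest with 34758, and these held 40.4% of all UMIs of the heat-shock-rich barcodes. In the mesentery 0 exceeded 5000 UMIs, and the highest had 3858. Since summed UMIs weight the large pharynx barcodes heavily, a ratio is from summed UMIs, and its value with every barcode weighted equally is added wherever a gene's ratio printed with an interval moved by more than 1.5 times. Whether large barcodes held more than 1 cell was not tested, and no doublet caller was run. Thinned to 300 UMIs, the median barcode showed 195 genes against 198 in the pharynx and 189 against 184 in the mesentery (unthinned 255 against 319, and 278 against 259.5). Mesentery and pharynx shared 60 barcode sequences, and 0 of these were heat-shock-rich in both. NvFoxA (NVE20630), a transcription factor gene of the pharynx in this species, stood at 336 UMIs per 1000000 in remaining pharynx barcodes against 186 in the mesentery, 1.70 in the tentacle and 4.62 in the body wall. In heat-shock-rich barcodes it stood at 284 in the pharynx and 161 in the mesentery.

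The 3 genes that chose the barcodes are given as a description. Their summed share was 2.56% of UMIs in heat-shock-rich and 0.192% in remaining pharynx barcodes, and 2.81% against 0.14% in the mesentery. NVE10283 had 4807 UMIs in 352 of the 357 pharynx barcodes, and 909 UMIs in 83 of the 87 mesentery barcodes. NVE3919 was detected in 83.2% and 80.5% of them, and NVE10284 in 70.3% and 65.5%. All 3 genes occurred together in 206 pharynx and 43 mesentery barcodes. Without NVE10283 the rule found 97 and 28 barcodes, so most passed only with that gene. The lowest shares inside the rule were 1.50% in the pharynx and 1.53% in the mesentery, and the highest just outside it were 1.49% and 1.50%. In barcodes below 300 UMIs the 3 genes took 0.815% of UMIs in the pharynx and 0.246% in the mesentery. These still include 360 and 77 barcodes that reached 5 UMIs and 1.5%. From the remaining kept barcodes such barcodes had been taken out, so these shares cannot be set against theirs. A like set would be all kept barcodes, whose share was not worked out here. Other heat-shock and chaperone genes took 2.68% in barcodes below 300 UMIs in the pharynx and 1.43% in the mesentery. The part of free RNA in these values was not tested.

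Other heat-shock and chaperone genes were carried by the same barcodes. Their summed share, without the 3 rule genes, was 6.38% in heat-shock-rich and 1.36% in remaining pharynx barcodes, and 7.05% against 1.29% in the mesentery. By barcode the median was 5.77% against 1.13% in the pharynx and 6.31% against 0.974% in the mesentery. This share lay above the upper quartile of the remaining barcodes in 348 of 357 pharynx and 87 of 87 mesentery barcodes. The highest remaining barcodes reached 13.0% and 11.6%, so the groups overlapped. HS71L_BOVIN, SIP1_CAEEL (NVE3918), HS90A_RABIT, HSP7C_RAT and BAG4_HUMAN, 5 genes with many UMIs, were detected together in 54.3% of heat-shock-rich against 10.4% of remaining pharynx barcodes. In the mesentery these shares were 56.3% and 8.90%. Each of the 444 barcodes held at least 1 of the 5.

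The HSP70 genes differed among themselves. HS71L_BOVIN (NVE15435), named after a mammalian HSP70, had 5897 UMIs in heat-shock-rich pharynx barcodes, a level of 17800 UMIs per 1000000 (CPM, of UMIs without the 3 rule genes) against 1720.3. The ratio was 10.3 (9.94 to 10.8), or 7.14 with barcodes weighted equally. In the mesentery it stood at 19378 against 1468, a ratio of 13.2 (12.3 to 14.2), or 7.83 with equal weights. HSP7C_RAT (NVE4209), named after the cognate HSP70 that cells make without stress, had ratios of 4.11 (3.88 to 4.34, equal weights 2.69) and 4.59 (4.11 to 5.11). HSP7C_SAGOE (NVE20412), a second gene with a cognate name, stood nearly level at 1.08 (0.978 to 1.19) and 1.26 (1.02 to 1.54). HS105_HUMAN (NVE8049), named after a nucleotide exchange factor of HSP70, had 5.86 (4.99 to 6.89) in the pharynx and 5.26 (3.98 to 6.87) in the mesentery.

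Small heat-shock genes outside the rule stood high as well. SIP1_CAEEL (NVE3918) had 4242 UMIs and a ratio of 7.27 (6.96 to 7.59) in the pharynx, and 1043 UMIs and 6.88 (6.42 to 7.37) in the mesentery. SIP1_CAEEL (NVE10282) had ratios of 10.4 (8.93 to 12.2) and 21.1 (16.2 to 27.4, equal weights 13.5). HSP11_CAEEL (NVE10281) had 15.9 (11.7 to 21.8, equal weights 9.10) and 15.1 (8.88 to 25.1), and HSP11_CAEEL (NVE24675) had 23.4 (15.7 to 35.7, equal weights 15.1) from 106 UMIs and 29.9 (14.2 to 63.7) from 18 UMIs. These genes carry the same names as the rule genes and may share reads with them, since no source used here says how reads that match several copies were treated. They are therefore uncertain as independent genes.

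Partners of HSP70 and HSP90 were higher by differing amounts. HS90A_RABIT (NVE22525), named after a cytosolic HSP90, had ratios of 4.50 (4.25 to 4.76) in the pharynx and 4.42 (3.96 to 4.92) in the mesentery. BAG4_HUMAN (NVE12842), with the BAG domain that binds HSP70, had 4512 and 783 UMIs and ratios of 4.49 (4.32 to 4.66) and 8.55 (7.87 to 9.28). STIP1_MACFA (NVE25016), named after the adaptor that links HSP70 to HSP90, had 4.01 (2.62 to 6.04, equal weights 2.18) in the pharynx from 38 UMIs, and 3 UMIs in the mesentery. DNJB5_MOUSE (NVE24600), a J-domain name, had 3.36 (2.61 to 4.30) and 3.78 (2.30 to 5.94), with 1.44 in the pharynx under equal weights. DJC21_BOVIN (NVE13515), another J-domain name, had 4.14 (3.38 to 5.05, equal weights 2.4) in the pharynx and 1 UMI in the mesentery.

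Chaperones named after those of the mitochondrion and the endoplasmic reticulum differed. GRP75_BOVIN (NVE2172), named after the mitochondrial HSP70, had 2.65 (1.88 to 3.68, equal weights 1.52) in the pharynx and 1.46 (0.620 to 2.97) in the mesentery. CH60_DROME (NVE18989) and CH10_ORYLA (NVE18990), the mitochondrial chaperonin and its partner, had pharynx ratios of 1.14 (0.883 to 1.45) and 1.04 (0.813 to 1.31). In the mesentery they had 7 and 6 UMIs and ratios of 0.441 (0.176 to 0.918) and 0.333 (0.121 to 0.730, equal weights 0.908). ENPL_CHICK (NVE13177), named after the HSP90 of the endoplasmic reticulum, had 2 UMIs in heat-shock-rich against 284 in remaining pharynx barcodes, and HSP7C_CAEBR (NVE11919) had 4 against 269. These lower genes were chosen after their values were seen.

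The levels were graded over the library. HS71L_BOVIN (NVE15435), with barcodes weighted equally, averaged 790.4, 1867, 6675, 13410 and 19449 CPM in pharynx barcodes with a rule-gene share of 0, up to 0.5%, 0.5% to 1.5%, 1.5% to 3% and 3% to 6%. The same bins of the mesentery stood at 975, 2011, 9872, 16296 and 20005. SQSTM_RAT (NVE1806), an autophagy receptor gene described below, stood at 447, 565, 1154, 1745 and 1618 in the pharynx and at 556, 770.2, 1843, 2830.1 and 4605 in the mesentery. The threshold of 1.5% therefore cut through a gradient, and 408 pharynx and 143 mesentery barcodes lay in the bin below it.

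**Figure D1:**
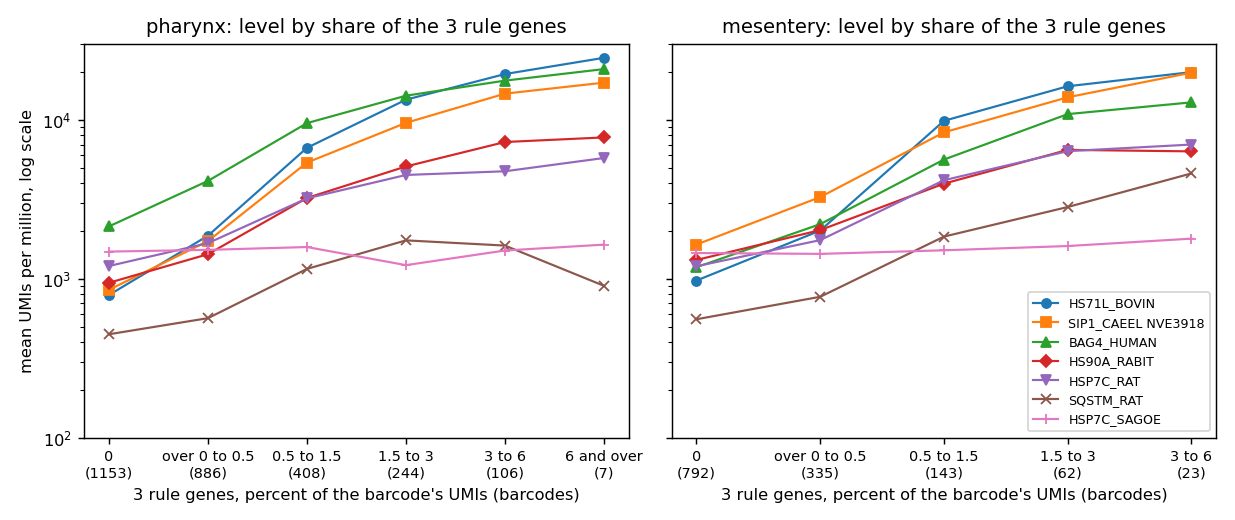
Mean level of 7 genes (CPM, log scale, barcodes weighted equally) against the share of UMIs in the 3 rule genes, in the pharynx (left) and the mesentery (right), with the number of barcodes per bin in brackets; the mesentery bin of 6% and over, with 2 barcodes, is not drawn. HS71L_BOVIN was higher in each successive bin, while HSP7C_SAGOE stayed between 1219 and 1789 CPM.

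For all other genes, heat-shock and chaperone genes were removed from both sums before scaling. They took 8.78% of UMIs in heat-shock-rich and 1.55% in remaining pharynx barcodes, and 9.66% and 1.43% in the mesentery. A gene was called higher at a ratio of at least 2 with at least 20 UMIs in at least 5 heat-shock-rich barcodes, and lower at a ratio of at most 0.5 with at least 20 UMIs expected there from the remaining barcodes. In the pharynx 443 of 1353 genes were higher, a background share of 32.7%, and 343 of 1304 lower, a share of 26.3%. In the mesentery 120 of 349 were higher (34.4%) and 67 of 327 lower (20.5%). The median ratio over all genes considered was 1.19 in the pharynx and 1.02 in the mesentery. Counts for gene lists are out of the genes that could be considered for either call. Counted so, 443 of 1717 genes were higher and 343 lower in the pharynx. The mesentery had 120 of 426 higher and 67 lower. Among chaperone genes outside the rule, 15 of 26 were higher and 2 lower in the pharynx. For the mesentery these counts were 10 of 11 higher and 0 lower.

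The pharynx counts rested in large part on the largest barcodes. With all barcodes above 5000 UMIs left out, 164 genes were higher and 153 lower in the pharynx. With barcodes weighted equally, 153 were higher and 311 lower there. By summed UMIs, by equal weights and without the largest barcodes alike, 102 genes were higher and 128 lower in the pharynx, and 83 and 41 in the mesentery. By all 3 alike, 27 genes were higher and 17 lower in both libraries. Among 402 genes considered in both libraries, 80 were higher in both by summed UMIs, which was 66.7% of the higher genes of the mesentery and 18.1% of those of the pharynx. The 37 genes lower in both were 55.2% and 10.8% of the lower genes. These percentages are of all higher or lower genes of a library, not of those among the 402. The pharynx had 1717 genes considered and the mesentery 426, so the pharynx percentages are bound to be small. No expected overlap was worked out. No gene of the 402 was called higher in 1 library and lower in the other.

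**Figure D2:**
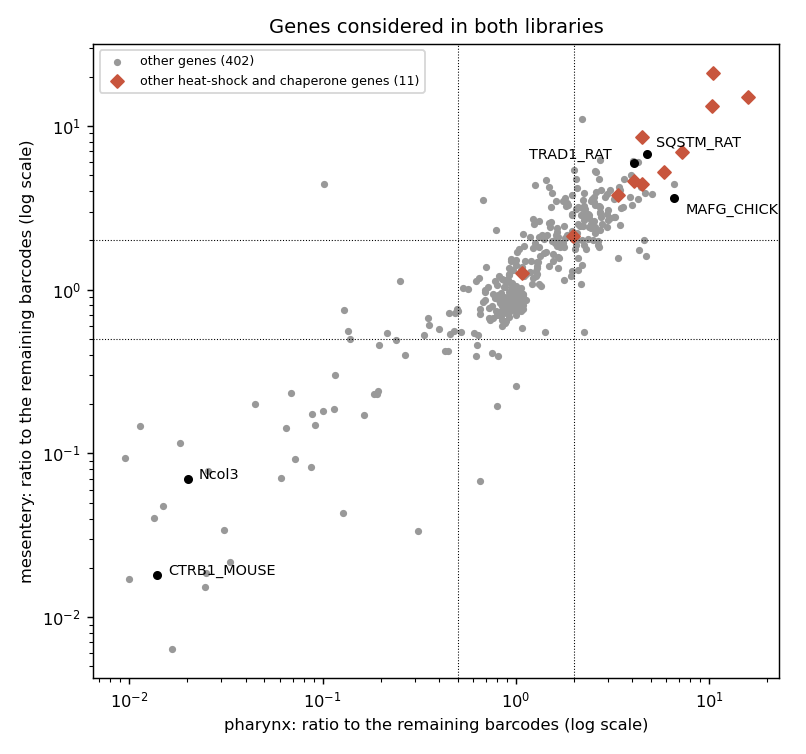
Ratio of heat-shock-rich to remaining barcodes in the pharynx (horizontal) and the mesentery (vertical), both on log scales, for 402 genes considered in both libraries (grey) and 11 other heat-shock and chaperone genes (diamonds); dotted lines mark ratios of 0.5 and 2. 80 genes lie past both lines at the upper right and 37 are called lower in both, and genes such as SQSTM_RAT (4.79 and 6.69) stand among the chaperone genes.

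The 3 genes named after receptors of selective autophagy that follow were higher in both libraries, and were picked by ratio or from the lists. Sequestosome 1 (p62) binds ubiquitin-tagged proteins and carries them into the autophagosome. SQSTM_RAT (NVE1806) had 694 UMIs in heat-shock-rich pharynx barcodes, a level of 2238 CPM against 467, a ratio of 4.79 (4.35 to 5.28) or 2.89 with equal weights. In the mesentery it had 225 UMIs, a level of 4019.7 against 601, a ratio of 6.69 (5.76 to 7.76) or 4.84 with equal weights. It was detected in 48.7% of heat-shock-rich and 23.9% of remaining pharynx barcodes, and in 72.4% and 25% in the mesentery, so most remaining barcodes showed none at these depths. SQSTM_HUMAN (NVE5418), a second gene of that name, had 3.41 (3.09 to 3.77) and 4.25 (3.5 to 5.13). TXB1B_DANRE (NVE12257), named after TAX1BP1, another receptor for ubiquitin-tagged cargo, had 3.22 (2.75 to 3.76) and 3.58 (2.63 to 4.79). With equal weights SQSTM_HUMAN stood at 2.43 and 2.98, and TXB1B_DANRE at 2.28 and 2.1.

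Genes of ubiquitin fused to a ribosomal protein stood near level. The ubiquitin and proteasome list as a whole had 1.30 (1.26 to 1.34) in the pharynx and 1.32 (1.24 to 1.41) in the mesentery. With remaining barcodes weighted to clusters it stood at 1.16 and 1.19. Of the ubiquitin and proteasome list 3 of 9 genes considered were higher and 0 lower in the pharynx, and 2 of 7 higher and 0 lower in the mesentery. Over all genes considered, 443 of 1717 and 120 of 426 were higher, so the list's counts of higher genes lay near that share. Both sequestosome genes are on this list and were the higher ones in the mesentery. The genes RS27A_CHICK (NVE22476) and RL40_SHEEP (NVE16955), which encode ubiquitin fused to a ribosomal protein, had 1.02 and 1.00 in the pharynx and 0.947 and 0.929 in the mesentery.

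MAFG_CHICK, MITF_MOUSE and TRAD1_RAT, also higher in both, are named after regulators. MAFG_CHICK (NVE5216), a small Maf protein that pairs with factors of the NRF2 family, had 684 UMIs and a ratio of 6.62 (5.97 to 7.34) in the pharynx, but 2.76 with equal weights. In the mesentery it had 3.63 (3.01 to 4.34), and 3.13 with equal weights. MITF_MOUSE (NVE15793), of the MiT family of transcription factors, members of which govern lysosome genes in mammals, had 3.45 (3.08 to 3.85, equal weights 2.19) and 4.06 (3.13 to 5.19). TRAD1_RAT (NVE6890), named after a TRAF-type zinc finger protein that restrains innate immune signalling in mammals, had 2160 UMIs in the pharynx and 323 in the mesentery. It was detected in 91.6% of heat-shock-rich against 54.3% of remaining pharynx barcodes, with ratios of 4.09 (3.88 to 4.31) and 5.96 (5.26 to 6.73), or 3.35 and 4.35 with equal weights.

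The other named genes higher in both libraries had varied roles. BACD3_HUMAN (NVE3322), named after an adaptor of a cullin ubiquitin ligase, had 5.07 (4.36 to 5.88, equal weights 3.24) and 3.86 (3.02 to 4.88). ADF9_ORYSJ (NVE13160), named after an actin-depolymerizing factor, had 4.03 (3.75 to 4.32, equal weights 2.23) and 6.13 (5.28 to 7.08, equal weights 3.39). SARAF_XENLA (NVE25210), named after a brake on store-operated calcium entry, had 4.65 (4.01 to 5.39, equal weights 2.30) and 3.91 (2.95 to 5.11). VGLU1_RAT (NVE9481), of the family of vesicular glutamate transporters, had 3.60 (2.89 to 4.45) and 3.21 (2.18 to 4.59), and COCE_RHOSM (NVE15969), named after a bacterial esterase, had 3.98 (3.48 to 4.53) and 3.30 (2.57 to 4.17). AAC4_DICDI (NVE23917) had 6.56 (4.64 to 9.25) and 4.43 (2.93 to 6.51), but 1.29 in the pharynx with equal weights, so there its level lay in the large barcodes. The gene models NVE23937 and NVE5920, without a name, had 4.28 and 4.46 in the pharynx and 6.01 and 4.22 in the mesentery. With equal weights NVE5920 stood at 1.91 in the pharynx, under the line of 2.

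Immediate early genes, which cells switch on within minutes of a stimulus, took a larger share of UMIs. They took 3.43% of UMIs in heat-shock-rich and 1.99% in remaining pharynx barcodes, a ratio of 1.73 (1.69 to 1.76), and 3.25% against 1.24% in the mesentery, a ratio of 2.63 (2.50 to 2.76). Of the genes considered, 6 of 15 were higher in the pharynx and 6 of 9 in the mesentery, with 0 lower in either. Over all genes considered for either call, 443 of 1717 and 120 of 426 were higher. With equal weights the list stood at 1.41 and 2.15, and with remaining barcodes weighted to clusters at 1.19 and 2.13. The AP-1 subunit gene c-jun (NVE21090) had 2.54 (2.41 to 2.68) and 3.69 (3.28 to 4.15), with 1.82 and 2.76 under equal weights. FOSX_MSVFR (NVE23145), a Fos-type name of a partner of Jun, had 3440 and 510 UMIs and ratios of 1.79 (1.72 to 1.86) and 3.60 (3.28 to 3.95). BTG1_MOUSE (NVE18272), named after an antiproliferative protein, had 1.95 (1.82 to 2.09) and 3.79 (3.27 to 4.37). In the remaining barcodes FOSX_MSVFR stood at 6200.3 CPM in the pharynx and 2528 in the mesentery, so the baseline differed between the libraries.

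Few genes of the cell death list had enough UMIs. Of those considered, 4 of 6 were higher in the pharynx and 2 of 3 in the mesentery, with 0 lower in either. Over all genes considered, 443 of 1717 and 120 of 426 were higher. The list had ratios of 1.69 (1.60 to 1.79) and 1.88 (1.63 to 2.15). With remaining barcodes weighted to clusters it stood at 1.18 and 1.57. B2CL2_HUMAN (NVE20350), named after a survival factor of the BCL2 family, had 3.21 (2.71 to 3.79) and 2.78 (1.76 to 4.2). B2LA1_BOVIN (NVE10019), another BCL2 relative, had 1.49 (1.39 to 1.60) and 2.56 (2.15 to 3.04), or 1.05 and 2.29 with remaining barcodes weighted to clusters.

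Genes of the response to amino-acid shortage were looked at in a list made after values of these data were seen, as was the actin cytoskeleton list. In the pharynx 9 of 14 considered were higher and 0 lower, and in the mesentery 1 of 3 was higher. The counts over all genes considered were 443 of 1717 and 120 of 426 higher. ATF4 (NVE13315), a transcription factor that drives such genes in mammals, had 1.83 (1.69 to 1.99) and 2.15 (1.77 to 2.60). ASNS_CRIGR (NVE17571), asparagine synthetase, had 4.71 (3.92 to 5.66) in the pharynx, but 1.87 with equal weights and 0.941 at a rule-gene share of at least 3%, and 1.61 (1.06 to 2.36) in the mesentery. In the endoplasmic reticulum stress list 5 of 9 genes were lower and 0 higher in the pharynx, beside 343 of 1717 lower over all genes considered. Yet the list's summed ratio there was 1.11 (1.04 to 1.18). In the mesentery 1 of 2 was higher and the ratio 1.31 (1.12 to 1.51). ATF4 is on this list too. Among the lower ones in the pharynx were CALR_MOUSE (NVE25258), named after a calcium-binding chaperone, at 0.484 (0.378 to 0.610), and PDIA1_MACFU (NVE5009), named after a disulfide isomerase, at 0.425 (0.284 to 0.614). The actin list stood at 0.974 (0.953 to 0.996) in the pharynx and 1.33 (1.28 to 1.38) in the mesentery, with 4 of 15 and 3 of 9 genes higher.

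Transcripts of stinging cells were scarce. Ncol3 (NVE9976), a minicollagen of the stinging capsule, had 11 UMIs in heat-shock-rich pharynx barcodes against 4194 in the remaining ones, a ratio of 0.0201 (0.0100 to 0.0360, equal weights 0.0980). In the mesentery it had 2 against 763, a ratio of 0.0693 (0.00838 to 0.251, equal weights 0.303). No heat-shock-rich barcode of either library held more than 1 UMI of it. With the other cnidocyte genes matched, the list had 14 UMIs against 4749 in the pharynx and 2 against 910 in the mesentery. With equal weights the list stood at 0.117 in the pharynx and 0.255 in the mesentery, against 0.0226 and 0.0581 by summed UMIs. Among the other genes lower in both libraries, EVA1C_PANTR (NVE3845) had 4 UMIs against 2049 in the pharynx and 1 against 556 in the mesentery. GAPR1_HUMAN (NVE18451) had 2 against 625 and 2 against 3471, and VMP_NEMVE (NVE4964) had 0 against 689 and 1 against 1211. Such genes lie in few barcodes: VMP_NEMVE was detected in 0.940% of remaining pharynx barcodes. The gene models NVE18959 and NVE4226, without a name, had 38 and 11 UMIs against 17465 and 8420 of the remaining pharynx barcodes. With equal weights their ratios were 0.175 and 0.0853, from 0.0167 and 0.0100 by summed UMIs.

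Digestive enzymes of gland cells were lower in both libraries. The list took 0.0671% of UMIs in heat-shock-rich and 0.524% in remaining pharynx barcodes, and 0.470% against 2.73% in the mesentery, ratios of 0.128 (0.111 to 0.147) and 0.172 (0.152 to 0.194), or 0.275 and 0.264 with equal weights. Of the genes considered 7 of 8 were lower in the pharynx and 13 of 13 in the mesentery. Over all genes considered, 343 of 1717 and 67 of 426 were lower. A gene scarce in heat-shock-rich barcodes can be considered only through its level in the remaining ones, so these counts are a description. CTRB1_MOUSE (NVE9071), a chymotrypsin name, had 2 UMIs against 1101 in the pharynx and 1 against 1467 in the mesentery. At a rule-gene share of at least 1% its mesentery ratio was 3.26, so barcodes just under the threshold decide that value. The phospholipase A2 genes PA2_URTCR (NVE18268) and PA2_URTCR (NVE18269) were detected in 36.8% and 52.9% of heat-shock-rich mesentery barcodes, close to the 46.3% and 56.2% of the remaining ones. No heat-shock-rich mesentery barcode held more than 4 UMIs of NVE18268 or 5 of NVE18269, and the ratios were 0.148 and 0.172. The part of free RNA in these low levels was not tested. The genes that follow were called lower in 1 library. In the other they had too few UMIs to be called lower, and not all stood below 1. CTRB_BOVIN (NVE23810), another chymotrypsin name, had 2 UMIs against 1257 in the mesentery, where CPP1_ACRMI (NVE16289) had 4 against 1477 and HAAF_LIMPO (NVE4901) 2 against 690. Their pharynx ratios, from few UMIs and with a floor of 3 for counts of 0, were 0.383, 2.30 and 1.34. With equal weights these were 0.732, 1.27 and 2.15. In the pharynx CSL1_ONCKE (NVE3843), a rhamnose-binding lectin name, had 1 against 882, LPHN_DROPE (NVE3844), a latrophilin name, 2 against 1440, where the mesentery had 0 against 472, and YOAJ_BACSU (NVE2639) 1 against 917. With weights by cluster CTRB_BOVIN stood at 0.626 in the mesentery and CSL1_ONCKE at 1.33 in the pharynx.

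The muscle and matrix lists stood at 0.545 (0.514 to 0.577) and 0.291 (0.261 to 0.323) in the pharynx, but at 1.07 and 0.974 with remaining barcodes weighted to clusters. In the muscle list 11 of 22 genes were lower and 4 higher in the pharynx, and 4 of 9 lower and 2 higher in the mesentery. Over all genes considered, 343 of 1717 and 67 of 426 were lower. CSRP1_COTJA (NVE7822), named after a LIM protein of muscle, had 6 UMIs against 457 and 7 against 1016. MYL9_MOUSE (NVE20160), a myosin regulatory light chain name, had 0.135 (0.0964 to 0.183, equal weights 0.381) in the pharynx and 0.561 (0.401 to 0.764, equal weights 0.356) in the mesentery, where its 41 UMIs lay in 2 barcodes. In the matrix list 9 of 16 genes were lower and 5 higher in the pharynx, while 0 could be considered in the mesentery. CO1A2_CANFA (NVE12857), a fibrillar collagen name, had 5 UMIs against 1021 in the pharynx, and TSP2_HUMAN (NVE25933), a thrombospondin name, had 33 against 2811.

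**Figure D3:**
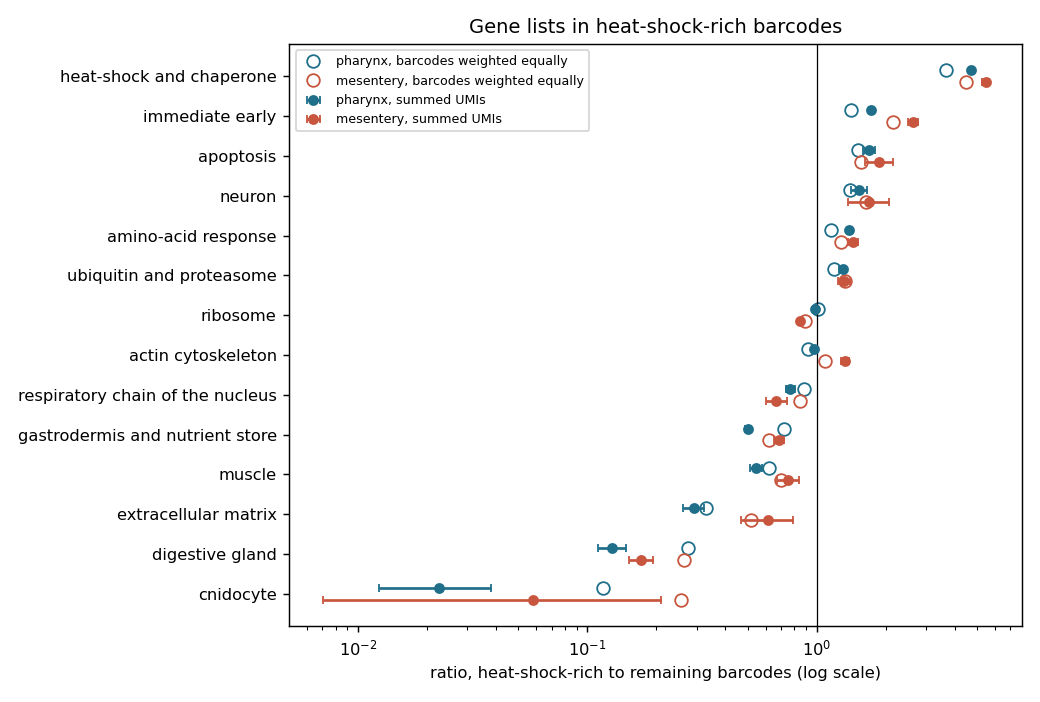
Ratio of the share of UMIs in heat-shock-rich to remaining barcodes for 14 gene lists (log scale), with filled points for summed UMIs and their 95% counting intervals, and open points for barcodes weighted equally. The cnidocyte and digestive gland lists lie farthest left, at 0.0226 and 0.128 in the pharynx by summed UMIs, and the ribosome list lies near 1.

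Genes of nutrient storage were lower to a lesser degree. The list took 1.92% of UMIs in heat-shock-rich against 3.81% in remaining pharynx barcodes, a ratio of 0.503 (0.490 to 0.517), or 0.718 with equal weights. In the mesentery it took 2.78% against 4.03%, a ratio of 0.689 (0.655 to 0.725). The iron store ferritin had unlike genes: FRIS_LYMST (NVE15943) and FRIS_LYMST (NVE14362) had pharynx ratios of 0.40 and 0.335, while FRIS_LYMST (NVE25570) had 0.916. In the mesentery the same genes had 0.574, 0.529 and 1.15. NPC2_PANTR (NVE18456), named after a sterol carrier of the lysosome, had 0.502 and 0.741.

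Ribosomal genes stood nearly level. Of the ribosomal genes considered, 85 in the pharynx and 84 in the mesentery, 0 were called higher or lower, and the list had ratios of 0.980 (0.974 to 0.987) and 0.850 (0.837 to 0.863). Nuclear genes of the respiratory chain had 0.768 (0.734 to 0.804) and 0.669 (0.601 to 0.742), with 5 of 36 genes lower in the pharynx and 1 of 8 in the mesentery. Over all genes considered, 343 of 1717 and 67 of 426 were lower. Genes of the mitochondrial genome had 18 and 3 UMIs from 5 matched genes, too few to serve as a measure of RNA quality. The cycling and germline list had 1.31 (1.24 to 1.40) and 0.972 (0.831 to 1.13), and the mucus gland list 0.694 (0.625 to 0.769) and 2.03 (1.65 to 2.48). The oxidative stress list had 0.925 (0.876 to 0.975) and 1.02 (0.899 to 1.14). The neuron list, 8 of whose 280 genes could be considered in the pharynx and 1 in the mesentery, had 1.53 (1.42 to 1.66) and 1.70 (1.38 to 2.08). The epidermis and pharynx list had 1.15 (1.07 to 1.24) and 1.33 (1.06 to 1.66), but 0.890 and 0.560 with remaining barcodes weighted to clusters. Of its 7 genes considered in the pharynx 0 were higher and 4 lower, with a median ratio of 0.260. HMCN1_HUMAN (NVE10021) stood at 1.99 there, but HMCN1_HUMAN (NVE1389) and HMCN1_HUMAN (NVE23050) at 0.0920 and 0.0966, or 0.152 and 0.282 with equal weights. In the mesentery 1 gene was considered, and it was higher. The immune list, with 30 and 19 UMIs, had 0.465 (0.310 to 0.672) and 1.07 (0.639 to 1.69).

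Several genes were called higher in 1 library while the other gave few UMIs. In the pharynx S27A4_HUMAN (NVE18519), named after a fatty acid transporter, had 7.83 (5.15 to 11.9, equal weights 4.08), and in the mesentery 6 UMIs. The tetraspanin name CD151_BOVIN (NVE2120) had 5.64 (4.66 to 6.82, equal weights 2.83) in the pharynx from 192 UMIs and 18 UMIs in the mesentery. HGS_BOVIN (NVE14581) and PDC6I_HUMAN (NVE11257), named after proteins that sort membrane cargo into endosomal vesicles, had 5.59 (3.28 to 9.44, equal weights 3.71) and 5.41 (3.43 to 8.46) in the pharynx, and 2 and 2 UMIs in the mesentery. FICD_NEMVE (NVE14482), an enzyme that modifies the HSP70 of the endoplasmic reticulum, had 5.36 (4.02 to 7.12) in the pharynx, or 1.86 with equal weights. GDF6A_DANRE (NVE17522), a growth factor name, had 5.35 (3.78 to 7.52) there, but 1.25 with equal weights and 0.982 at a share of at least 3%.

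In the mesentery HMCN1_HUMAN (NVE10021), whose name is that of hemicentin, a matrix protein, had 43 UMIs and a ratio of 5.42 (3.81 to 7.55), or 3.03 with equal weights. It was detected in 31.0% of heat-shock-rich and 10.6% of remaining mesentery barcodes. In the pharynx the gene stood at 2096 against 1053 CPM, a ratio of 1.99 (1.82 to 2.17). With remaining barcodes weighted to clusters the gene stood at 0.994 there and at 2.01 in the mesentery. Kept tentacle and body wall barcodes had 0 UMIs of it. ENKUR_HUMAN (NVE19785), named after a protein of sperm and cilia, had 4.23 (2.50 to 6.82, equal weights 2.26) in the mesentery from 20 UMIs and 1.48 (1.17 to 1.86) in the pharynx. ANO7_MOUSE (NVE22010), of the anoctamin family, had 4.64 (2.84 to 7.27, equal weights 2.64) from 23 UMIs in the mesentery and 1.44 (1.09 to 1.88, equal weights 0.912) in the pharynx. ADF2_ORYSJ (NVE10746), a second name of an actin-depolymerizing factor, had 4.33 (3.23 to 5.72) in the mesentery from 59 UMIs in 8 barcodes.

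To show which cells carried the transcripts, the kept barcodes of both libraries were grouped by all genes but the heat-shock and chaperone genes. The 26 clusters held very unequal shares of heat-shock-rich barcodes. Yet at this setting 0 clusters with at least 50 barcodes of a library reached 2 times the share of the whole library. This depended on the setting. At Leiden resolution 2, 2 clusters did so in the pharynx and 1 in the mesentery, and at resolution 0.5 these counts were 0 and 1. With 20 principal components they were 1 and 1, and with each library clustered by itself 1 and 2. The clusters described here are those of resolution 1. In the pharynx cluster 0 held 167 of 772 (21.6%, 18.8 to 24.7). Cluster 0 thus held 46.8% of the heat-shock-rich and 24.7% of the remaining barcodes of that library. Its leading genes were NVE19335, HMCN1_HUMAN (NVE10021) and OIT3_HUMAN (NVE4770), with TRAD1_RAT, FOSX_MSVFR and B2LA1_BOVIN farther down its first 30. Cluster 4, led by Ets (NVE20154) and also by ASNS_CRIGR and MAFG_CHICK, held 47 of 222 (21.2%, 16 to 27.1) in the pharynx. Cluster 13, again led by NVE19335 and HMCN1_HUMAN, held 16 of 78 (20.5%, 12.2 to 31.2). Cluster 11, led by genes of cell division such as CENPE_MOUSE (NVE16653) and WEE1_MOUSE (NVE17855), held 15 of 81 (18.5%, 10.8 to 28.7). None of these met the rule for a cell-type name, and cluster 0 was almost wholly of the pharynx (772 of 799 barcodes), so it may stand for that library. Since genes higher in the heat-shock-rich barcodes are among those that lead these clusters, the clusters were not formed apart from them.

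Cluster 5, led among others by ODF3A_XENLA (NVE26201), ENKUR_HUMAN and SPAS1_RAT (NVE13660), names of proteins of sperm and cilia, held 31 of 196 (15.8%, 11.0 to 21.7). It held 9 of the 10 heat-shock-rich barcodes above 5000 UMIs, from 6545 to 34758 UMIs. The cilia list had a pharynx ratio of 1.23 (1.08 to 1.38) by summed UMIs but 0.707 with equal weights, and 1.81 (1.38 to 2.32) in the mesentery. With remaining barcodes weighted to clusters it stood at 0.424 in the pharynx and 1.31 in the mesentery.

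In the mesentery cluster 1 held 55 of 564 (9.75%, 7.43 to 12.5), or 63.2% of the heat-shock-rich and 40.1% of the remaining barcodes of that library. It was led by NVE7138, NVE26196 and BACD3_HUMAN, with COCE_RHOSM farther down, and 564 of its 589 barcodes were of the mesentery. Cluster 4 held 18 of 152 (11.8%, 7.17 to 18.1), so clusters 1 and 4 together held 83.9% of the heat-shock-rich barcodes. Of the remaining mesentery barcodes cluster 4 held 10.6%.

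Some clusters held few or none. The extracellular matrix-like cluster 2, led by APLP_LOCMI (NVE25290) and with CO1A2_CANFA and PXDN_HUMAN (NVE15776) among its first 10 genes, held 3 of 385 (0.779%, 0.161 to 2.26) in the pharynx. In the mesentery it held 0 of 131 (Clopper-Pearson upper limit 2.78%). The gastrodermis and nutrient store-like cluster 6 held 1 of 95 (1.05%, 0.0266 to 5.73) in the mesentery. Over both libraries the muscle-like cluster 12 held 3 of 90 barcodes, and the digestive gland-like cluster 17 held 0 of 50. Taking 3 barcodes as the limit for a count of 0, this allows a share of up to 6.0%. Such limits are lower than Clopper-Pearson ones. Cluster 21, led by PA2_URTCR (NVE18268), held 0 of 39 (up to 7.69%), and cluster 20, led by VMP_NEMVE, 0 of 42 (up to 7.14%). The median depth was 659 UMIs for pharynx barcodes of cluster 2 and 572 for those of cluster 0, while cluster 20 stood at 5370.5.

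**Figure D4:**
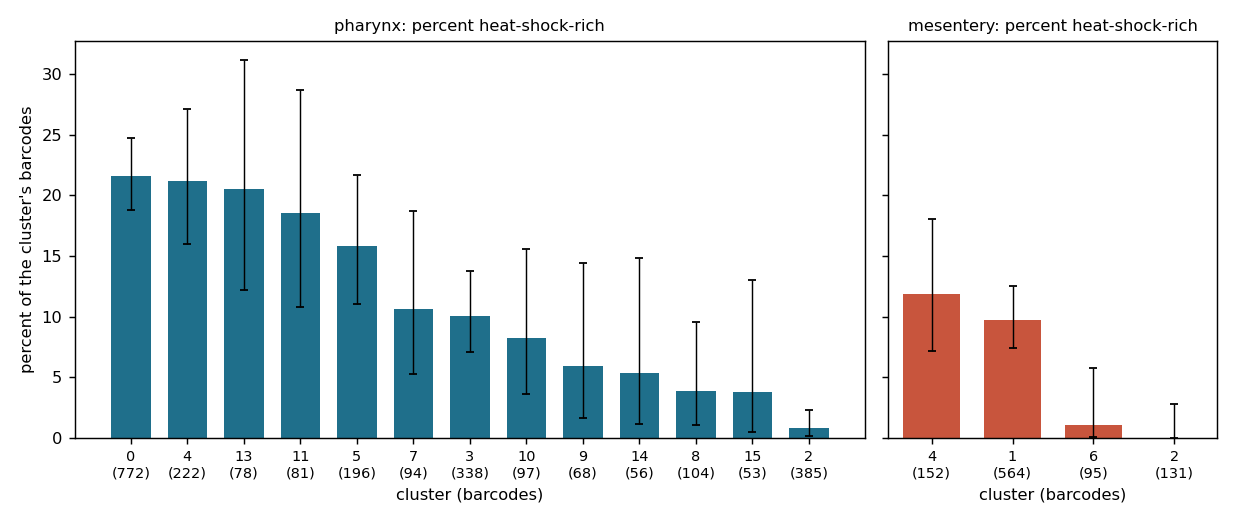
Percent of barcodes that were heat-shock-rich in each cluster with at least 50 barcodes of the library, in the pharynx (left) and the mesentery (right), with 95% Clopper-Pearson intervals; labels give the cluster and, in brackets, its barcodes. Cluster 0 stands highest in the pharynx at 21.6% and cluster 2 lowest at 0.779%.

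Within single clusters fewer genes were called. In pharynx cluster 0, 20 genes were higher and 0 lower among 489 considered. In mesentery cluster 1, 39 were higher and 3 lower among 237. Pharynx cluster 5, with most of the large barcodes, had 131 higher and 180 lower among 919. The share of other chaperone genes stayed apart, at 6.03% against 1.82% in pharynx cluster 0 and 6.94% against 1.81% in mesentery cluster 1.

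SQSTM_RAT and TRAD1_RAT stood above 1 within clusters too. SQSTM_RAT had ratios of 1.99 and 1.68 in pharynx clusters 0 and 4, and 4.01 and 3.09 in mesentery clusters 1 and 4. TRAD1_RAT had 2.21, 2.60, 2.92 and 5.79 in the same order. For c-jun the values were 1.34, 1.65, 2.22 and 2.55, but 0.722 in pharynx cluster 11, from 15 UMIs. Some of the scarce genes of specialised cells differed in this, and others stayed low. With the remaining barcodes weighted to the clusters of the heat-shock-rich ones, the digestive gland list stood at 0.778 in the pharynx, and the mesentery ratio of that list was 1.04 and that of the cnidocyte list 3.15, the latter from 2 UMIs. VMP_NEMVE then stood at 2.09, GAPR1_HUMAN at 3.29, EVA1C_PANTR at 2.24 and Ncol3 at 3.95 in the mesentery, each from 1 or 2 UMIs, and TSP2_HUMAN at 1.07 in the pharynx. The cnidocyte list of the pharynx stayed low with these weights, at 0.293, with Ncol3 at 0.236. YOAJ_BACSU at 0.385 and CO1A2_CANFA at 0.180 also stayed low there, as did CSRP1_COTJA at 0.265 in the mesentery.

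The same rule found fewer barcodes in the other tissues, 42 of 1299 in the tentacle (3.23%, 2.34 to 4.35) and 27 of 1652 in the body wall (1.63%, 1.08 to 2.37). Their median depth was 972 and 1056 UMIs. HS71L_BOVIN stood at 15703 CPM against 860.3 in the tentacle and at 20644 against 422 in the body wall, beside 17800 and 19378 in heat-shock-rich pharynx and mesentery barcodes. SQSTM_RAT had ratios of 2.68 (1.95 to 3.61) and 8.17 (6.08 to 10.8), and TRAD1_RAT 11.6 (10.3 to 13.1) and 10.7 (8.93 to 12.9). The c-jun ratio was 4.70 (4.15 to 5.30) in the tentacle and 2.82 (2.38 to 3.31) in the body wall. ADF9_ORYSJ had 1.60 (1.40 to 1.83) and 1.32 (0.835 to 2.00, equal weights 0.880), and MITF_MOUSE 1.63 (1.03 to 2.48) and 1.59 (1.00 to 2.4), both under 2 there. SARAF_XENLA stood at 0.490 (0.234 to 0.907) in the tentacle. The differences between tissues were not tested.

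**Figure D5:**
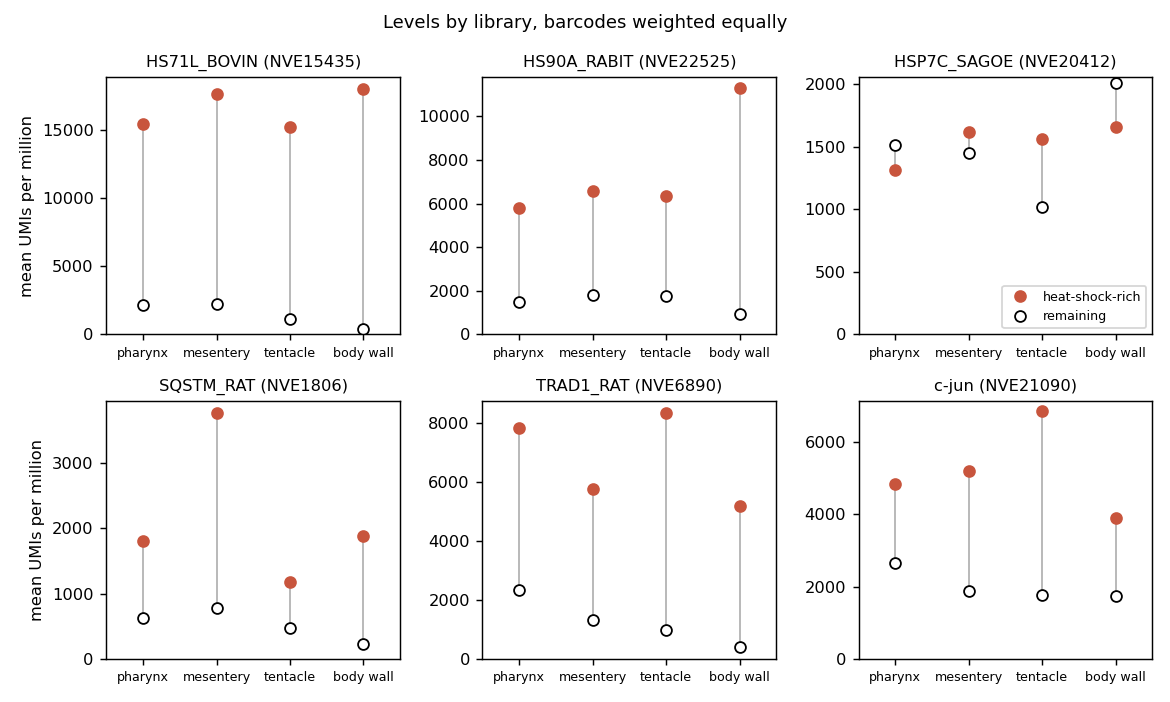
Mean level (CPM, linear scale from 0, barcodes weighted equally) of 6 genes in heat-shock-rich (filled) and remaining (open) barcodes of the 4 libraries, scaled without the 3 rule genes for chaperone genes and without all heat-shock and chaperone genes for the others. HS71L_BOVIN stands between 15250 and 18002 in the heat-shock-rich barcodes, and HSP7C_SAGOE is the gene of the 6 whose order differs between libraries.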

How the data were processed

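Gene by barcode UMI counts were deposited by the authors, 1 matrix for each of 4 tissue libraries, with 7000 barcodes each. The total UMI counts were 2637057 for tentacle, 2517855 for mesentery, 3499510 for pharynx and 2817054 for body wall. Per the submitters' processing notes they used Cell Ranger 2.1.0. No genome build is stated in the sources used here. Of 25734 gene rows 17269 carry a name. Barcodes with at least 300 UMIs were kept. The heat-shock-rich barcodes and the gene lists were chosen with earlier results of these data known, the amino-acid and actin lists and 25 J-domain genes after seeing values. Counts were summed over barcodes, ratios were given exact Poisson-ratio intervals, and shares Clopper-Pearson intervals. Ratios of chaperone genes use UMIs without the 3 rule genes, and those of other genes UMIs without all 122 heat-shock and chaperone genes. Values with 0 counts were set against a floor of 3 UMIs. The limit of a cluster with 0 heat-shock-rich barcodes over both libraries is 3 divided by its barcodes. Barcodes were thinned to 300 UMIs with seed 1. No doublet caller was run. Clustering left out those 122 genes (scanpy 1.11.5, leidenalg 0.10.2, 2000 variable genes, 30 principal components, 15 neighbours, resolution 1), and clusters were named only from listed markers. Named genes are the 12 higher and 8 lower in both libraries, 6 higher and 3 lower in 1 library each and up to 2 unnamed models each way, by size of ratio, the 4 most abundant of each list, chaperone genes with at least 20 UMIs, and leading genes of clusters. Other genes are named as chosen later. A gene that these rules name is not reported here. Python 3.11.15, numpy 2.4.6, scipy 1.17.1 and pandas 2.3.3 were used. The calling of higher and lower genes was tested on simulated data. Alternatives changed the UMI minimum, the rule, the denominator, the weights, the gene minimum and the clustering.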

Additional observations from a re-analysis of the deposited data

Results flagged for a closer look

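Some values stood on opposite sides of 1 in the pharynx and the mesentery, and these differences were not tested. The mucus gland list had a ratio of heat-shock-rich to remaining barcodes of 0.694 in the pharynx and 2.03 in the mesentery, where the higher gene was ZAN_HUMAN (NVE15136), a zonadhesin name, at 2.09 (1.61 to 2.68). With barcodes weighted equally the list stood at 0.882 and 1.45. The actin cytoskeleton list had 0.974 and 1.33. Its actin genes ACTC_BIOAL (NVE1939) and ACTB_XENBO (NVE2870) had 0.944 and 0.917 in the pharynx and 1.50 and 1.24 in the mesentery. The ferritin gene FRIS_LYMST (NVE25570) had 0.916 and 1.15.

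Barcodes below 300 UMIs, which the comparisons did not use, held the 3 rule genes as well. At least 5 UMIs and 1.5% of UMIs were reached by 8.58% of them in the pharynx and 1.36% in the mesentery. In the tentacle 0.368% and in the body wall 0.0374% did so.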

How the results depend on the processing

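The number of heat-shock-rich barcodes followed the rule: 140 in the pharynx and 47 in the mesentery at 500 UMIs, 113 and 25 at a share of 3%, 97 and 28 without NVE10283, and 55 in the mesentery without NVE3919. Genes higher in the pharynx numbered 71 at 3%, 91 without NVE10283, 140 without the 5% of barcodes with most UMIs, 164 without those over 5000 UMIs (chosen after seeing the data), 153 with equal weights, 127 with remaining barcodes weighted to clusters, 667 and 217 at gene minimums of 10 and 50 UMIs, and 146 at 3-fold. Genes lower there numbered 70, 86, 142, 153, 212 by cluster weights, 606 and 145 by gene minimum, and 214 without NVE3919. In the mesentery 45, 33, 73, 217, 55 and 60 genes were higher at 3%, without NVE10283, by cluster weights, at 10 and 50 UMIs and at 3-fold. Lower were 102 at 1%, 16 at 3%, 9 without NVE10283, 41 without NVE3919, 19 by cluster weights, and 140 and 22 at 10 and 50 UMIs. With cluster weights the genes called were in part other ones. Of the main calls, 57 of 343 lower and 120 of 443 higher genes kept their call in the pharynx. In the mesentery 12 of 67 lower and 73 of 120 higher genes kept it. A change in the rule or the gene minimum changes the barcodes or genes that can be called; for the other settings the cause was not tested. The highest percent of a cluster was 49.4, 25.7 and 31.2 in the pharynx and 18.1, 19.7 and 24.0 in the mesentery at Leiden resolution 2, with 20 principal components and with each library clustered by itself.

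Of the values of single genes under these settings, 1163 moved by less than counting error, 608 by more and 21 past 2-fold changed side; of list values 368, 246 and 2. Counting lists nearer 1 as well, 17 to 21 of 22 pharynx and 16 to 22 mesentery lists stayed on their side, fewest with cluster weights. In the pharynx COCA1_MOUSE (NVE1555) went to 1.19 at 1%, and GDF6A_DANRE to 0.982 and ASNS_CRIGR to 0.941 at 3%. Cluster weights there gave 1.33 for CSL1_ONCKE, at most 2.12 for VMP_NEMVE (0 UMIs, set to the floor of 3), 1.91 for DKK3_MOUSE (NVE142), 1.30 for MLC2_DROME (NVE3912), 1.74 and 1.61 for HMCN1_HUMAN (NVE1389 and NVE23050), 1.07 for TSP2_HUMAN and 2.41 for PGBM_HUMAN (NVE18733). In the mesentery CTRB_BOVIN and CTRB1_MOUSE went to 2.01 and 3.26 at 1%, and MLC2_DROME to 1.56 without NVE10283. Cluster weights there gave 3.15 for the cnidocyte and 1.04 for the digestive gland list, 3.29 for GAPR1_HUMAN, 2.09 for VMP_NEMVE, 2.24 for EVA1C_PANTR, 3.95 for Ncol3, 1.31 for NVE4226, and 1.04 and 1.41 for PA2_URTCR (NVE18269 and NVE10958). The cause was not tested. No paired analysis was possible because each tissue has 1 library. Depth limits calls to genes with at least 20 UMIs.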

Other observations

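Some higher genes of the lists, not named above, were chosen after their values were seen; ratios are of summed UMIs with 95% counting intervals. In the pharynx SYT4_MOUSE (NVE15730), a synaptotagmin name of vesicle fusion, had 3.18 (2.15 to 4.61, equal weights 2.1) from 41 UMIs in 30 barcodes, and VAMP3_HUMAN (NVE20764) had 2.66 (2.03 to 3.45) from 79 UMIs in 48 barcodes. In the mesentery SYT4_MOUSE had 4 UMIs and VAMP3_HUMAN 1.91 (0.968 to 3.43, equal weights 3.94). Among the 5 higher of 16 matrix genes in the pharynx, beside 9 lower, LAMB1_MOUSE (NVE15212), a laminin name, had 3.67 (2.13 to 6.16) from 23 UMIs, and FBLN1_DANRE (NVE4720), a fibulin name, had 3.78 (2.82 to 5.03, equal weights 2.48) from 74 UMIs.

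Among transfer RNA synthetases, SYWC_HUMAN (NVE12246), which loads tryptophan, had 4.40 (3.13 to 6.14, equal weights 2.74) in the pharynx and 2.57 (1.37 to 4.46) in the mesentery, and SYAC_MOUSE (NVE5200), which loads alanine, had 4.83 (3.05 to 7.55, equal weights 2.11) and 1.24 (0.332 to 3.31). ACTB_ORYLA (NVE20305), an actin name, had 2.59 (2.39 to 2.80, equal weights 1.57) in the pharynx from 825 UMIs and 5.23 (4.16 to 6.53) in the mesentery from 96, while ACTB_XENLA (NVE2876) had 0.130 (0.112 to 0.15, equal weights 0.262) and 0.754 (0.678 to 0.837). Reads of such near copies may be shared between genes.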
